A study of Mus musculus with 4 samples.

Results

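The barcodes described here are 208 of 4729 lung multiplets (4.40%, 95% interval 3.83 to 5.02%) that carried RNA of the C1q genes. Multiplets are clusters of attached cells caught in a single droplet, and the RNA of all cells in the cluster gets the same barcode. Members were chosen by their C1q reads: C1qa, C1qb and C1qc together made up at least 10 of every 10000 unique molecular identifiers (UMIs, counted RNA molecules) of the barcode. They are called C1q multiplets here and are set against the 4521 other multiplets of the same library and against 283 single cells (singlets) that the authors' annotation of the lung calls Macrophage. Lung was 1 of 2 tissues in the series, which held 19763 barcodes in 4 libraries, 1 each of multiplets and singlets from whole lung and from small intestinal epithelium.

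All groups came from C57BL/6J mice, an inbred strain, with no other genotype or treatment named. Whole lung was taken apart mechanically and with enzymes, and transcripts were counted near their 3' end (Chromium Single Cell 3' v3 chemistry). The labels name no separate animals, give no age, and do not say how multiplets were separated from singlets. With 1 library per group no test could be run, so genes are described by the size of the difference, and every interval covers counting error only. Because the members were chosen by C1q reads, their difference from the other multiplets in any gene is a description of the chosen barcodes.

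C1q is the recognition component of the classical complement pathway, built from A, B and C chains that bind antibody complexes and dying cells. In tissues it is made mainly by macrophages rather than by the liver. In the mouse lung, macrophages of the airspace (alveolar macrophages) differ from those of the tissue (interstitial macrophages), which lie near vessels, nerves and airways and present antigen through MHC class II. One interstitial population, known for the surface proteins LYVE1, FOLR2 and CD163, lies along blood vessels, and another is richer in MHC class II.

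The 3 chain genes lie next to each other on the minus strand of mouse chromosome 4 (build GRCm38, GENCODE M21): C1qb at chr4:136880129-136886187, C1qc at chr4:136889804-136893065 and C1qa at chr4:136895917-136898803. Together they span 18675 bases. The chemokine genes that separated the C1q multiplets most from the other multiplets also include neighbours, Ccl12 at chr11:82101845-82103400 and Ccl8 at chr11:82115185-82116799, both on the plus strand. Pf4 lies at chr5:90772435-90773383 and Cxcl13 at chr5:95956951-95961068, both on the plus strand.

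The sequences just before the start of 1 chain gene, used by the rule, and of 4 chemokine genes with high ratios in C1q multiplets are shown. Whether these RNAs lay in the same barcodes was not tested. Cxcl13, Ccl8 and Ccl12 had a UMI in only 26.0, 27.9 and 32.7% of C1q multiplets. Each is the 250 bases 5' of the RefSeq start on the gene's own strand (GRCm38.p6), at chr4:136886201-136886450 (minus) for C1qb, chr5:90772185-90772434 (plus) for Pf4, chr5:95956689-95956938 (plus) for Cxcl13, chr11:82114935-82115184 (plus) for Ccl8 and chr11:82101595-82101844 (plus) for Ccl12. Capitals mark matches to GAGGAA, a core bound by the myeloid factor PU.1 and other ETS proteins, and to TGCTGA, a core bound by MAF factors, or to their reverse complements TTCCTC and TCAGCA.
C1qb: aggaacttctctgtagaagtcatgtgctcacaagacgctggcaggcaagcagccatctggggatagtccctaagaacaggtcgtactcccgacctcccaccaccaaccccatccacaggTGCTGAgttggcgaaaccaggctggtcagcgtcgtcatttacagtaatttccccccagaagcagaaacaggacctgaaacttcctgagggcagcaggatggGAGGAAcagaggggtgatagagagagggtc
Pf4: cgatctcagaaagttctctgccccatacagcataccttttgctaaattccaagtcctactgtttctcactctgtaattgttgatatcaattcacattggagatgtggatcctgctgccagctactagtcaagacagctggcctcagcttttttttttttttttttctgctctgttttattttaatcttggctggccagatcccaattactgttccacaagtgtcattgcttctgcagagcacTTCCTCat
Cxcl13: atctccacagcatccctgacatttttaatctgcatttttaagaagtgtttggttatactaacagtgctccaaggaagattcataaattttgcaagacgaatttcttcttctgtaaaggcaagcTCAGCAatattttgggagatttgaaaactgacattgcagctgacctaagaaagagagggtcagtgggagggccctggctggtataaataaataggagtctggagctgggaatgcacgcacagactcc
Ccl8: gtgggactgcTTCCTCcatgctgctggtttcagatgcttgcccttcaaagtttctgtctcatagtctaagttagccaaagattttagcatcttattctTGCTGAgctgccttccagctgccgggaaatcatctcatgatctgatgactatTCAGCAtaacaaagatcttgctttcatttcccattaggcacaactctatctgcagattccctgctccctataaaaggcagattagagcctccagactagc
Ccl12: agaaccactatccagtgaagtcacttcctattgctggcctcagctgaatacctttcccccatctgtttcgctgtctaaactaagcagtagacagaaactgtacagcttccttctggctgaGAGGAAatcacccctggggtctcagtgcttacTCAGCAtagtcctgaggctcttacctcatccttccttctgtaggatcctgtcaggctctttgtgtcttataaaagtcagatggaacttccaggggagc

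C1qb held 1 GAGGAA 30 bases and 1 TGCTGA 131 bases before the start. Pf4 held 1 TTCCTC 8 bases before it, and Cxcl13 held 1 TCAGCA 127 bases before it. Ccl8 and Ccl12 each held both motifs. These letters are common: on either strand, GAGGAA occurred in 23.3% of the 32851 windows of this length in the table, TGCTGA in 16.1% and both in 3.68%. Of the 15 leading genes described further on, 12 had a window in the table, with 15 windows in all, of which 6 held GAGGAA and 7 held TGCTGA. A match describes letters and shows neither binding nor a cause.

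C1q reads split the multiplet library into barcodes with almost none and barcodes with many. Of the 4729 multiplets, 4232 had no C1q UMI, 259 had some but under 2 per 10000, and only 30 lay between 2 and 10. The members held 10.2 to 266 C1q UMIs per 10000, with a median of 67.8, or 12 to 392 C1q UMIs with a median of 103.5. All 3 chains were present in 207 of the 208. The 3 members nearest the limit had 10.2, 10.6 and 10.9 per 10000, and the 3 nearest barcodes outside it had 9.28, 9.07 and 8.85.

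**Figure D1:**
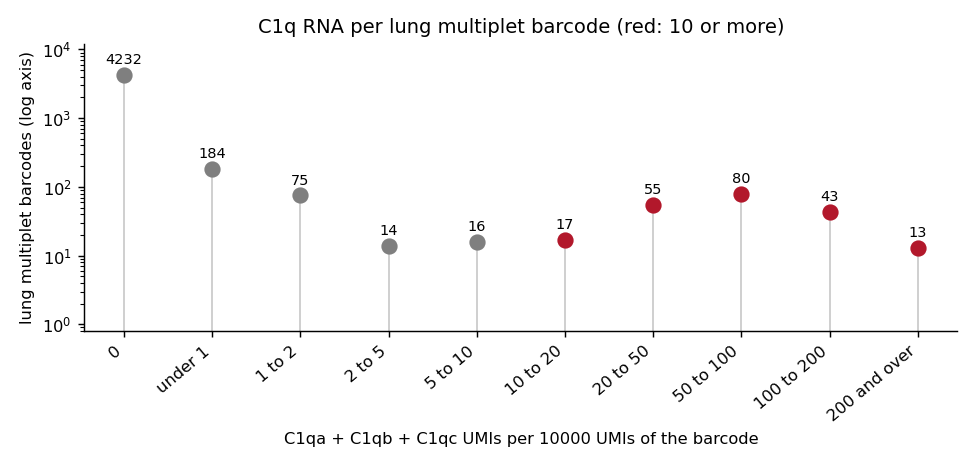
Number of lung multiplet barcodes (y axis, log scale) in each range of C1qa plus C1qb plus C1qc UMIs per 10000 UMIs of the barcode (x axis), with the 208 C1q multiplets in red and the other multiplets in grey. Most barcodes had 0, 14 and 16 lay in the ranges from 2 to 5 and from 5 to 10, and the most frequent range among the C1q multiplets was 50 to 100 with 80 barcodes.

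C1q multiplets held 23406 C1q UMIs, 96.7% of those in the multiplet library, against 788 in all other multiplets. In CPM (UMIs of the summed barcodes, scaled to the same total in every group), C1qa had 2525 CPM in C1q multiplets, 5.27 CPM in other multiplets and 228 CPM in Macrophage singlets. C1qb had 1935 CPM in C1q multiplets, 4.77 CPM in other multiplets and 214 CPM in Macrophage singlets, and C1qc had 1351, 2.62 and 126 CPM in the same groups. These values were used by the rule. Across members the median share of C1q UMIs was 43.3% for C1qa (quartiles 39.5 and 48.5%), 32.5% for C1qb and 22.9% for C1qc.

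The Macrophage singlets were mostly without C1q: 256 of 283 had no C1q UMI, and 15 (5.30%, 3.0 to 8.59%) passed the rule used for multiplets. Over all singlet classes, 19 of 6084 barcodes passed it, the 15 Macrophage singlets, 2 T cells, 1 B cell and 1 ciliated cell. All 6084 singlets together held 1746 C1q UMIs, fewer than the 208 C1q multiplets. Of the 227 alveolar macrophage singlets, 0 passed (exact upper bound 1.61%). The multiplet and singlet tables of the lung shared 2 barcode sequences, of which 0 belonged to members.

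C1q multiplets held somewhat more RNA than the groups they are set against. They had 5118 to 71331 UMIs per barcode with a median of 14699.5, against a median of 11849 in other multiplets and 8574 in Macrophage singlets. Their median number of genes per barcode was 3883.5, against 3364 in other multiplets and 2665 in Macrophage singlets. The median mitochondrial share of UMIs was 3.15% in C1q multiplets, 3.32% in other multiplets and 2.31% in Macrophage singlets. The part of these depth differences in the results was not tested, and the shares of barcodes with a marker list are given after each barcode was thinned to 5000 UMIs. Shares of barcodes with a UMI of 1 gene and CPM per barcode are unthinned unless 5000 UMIs is named. In such sums fewer cells of a type and less RNA per cell cannot be told apart.

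Against the other multiplets, C1q multiplets were marked by chemokines, scavenger receptors and other genes of tissue macrophages. Their sums of surfactant, airway, vessel and fibroblast RNA were low. Of 14728 genes with at least 50 UMIs in either sum, 1044 (7.09%) were more than 2-fold higher in C1q multiplets and 3468 (23.5%) more than 2-fold lower. The median log2 ratio over these genes was -0.15. The 15 genes with the highest ratio apart from the chains were Cd209f, Ccl8, Folr2, Cxcl13, Ccl24, Ccl12, Prg4, Pf4, C3ar1, Ms4a7, Fcrls, Cd163, Mmp12, Ccl7 and Hpgds. All 15 stayed higher without the barcodes holding lymphocyte RNA, without the 10 deepest, with equal weight per barcode and after thinning. TMM scaling changed every ratio by the same factor and left them higher. The 15 were chosen by their ratios in these same barcodes, so their direction under the alternatives is no independent check. Prg4 had a ratio of 212, which was 81.3 without the 10 deepest and 466 without the barcodes holding lymphocyte RNA. The ratios of Ccl12, Ms4a7, Fcrls, Cd163, Mmp12 and Hpgds were more than 1.5 times larger after thinning, such as 196 for Ms4a7.

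Among these genes, 6 encode chemokines, secreted proteins that attract leukocytes. Pf4, platelet factor 4, was the most abundant and the most widely spread: it had 904 CPM in C1q multiplets and 7.63 CPM in other multiplets, 118-fold higher (108 to 131), with a UMI in 82.7% of C1q multiplets and 5.62% of other multiplets. At 5000 UMIs per barcode Pf4 was present in 69.2% of C1q multiplets, 2.41% of other multiplets and 3.40% of Macrophage singlets. Per barcode it had a lowest value of 0, a median of 479 and a highest of 7519 CPM in C1q multiplets, while its median in other multiplets and in Macrophage singlets was 0. Platelets also carry Pf4, and the 4 platelet markers summed to 1.74 CPM in C1q multiplets and 4.40 CPM in other multiplets. Of the 208 C1q multiplets, 0 had 3 UMIs of the platelet list at 5000 UMIs, a count that leaves room for 1.44% by a limit of 3 barcodes (exact upper bound 1.76%).

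Cxcl13, which draws B cells into follicles, had 427 CPM in C1q multiplets and 0.964 CPM in other multiplets, a ratio of 443 (342 to 583). It was concentrated in few barcodes: its median per C1q multiplet was 0 and its highest value 19927 CPM, and 10 barcodes held 63.1% of its UMIs. The CC chemokines Ccl8 and Ccl12, ligands of receptors on monocytes and T cells, behaved alike. Ccl8 had 167 CPM in C1q multiplets and 0.305 CPM in other multiplets, with 63.6% of the members' UMIs in 10 barcodes. Ccl12 had 116 CPM in C1q multiplets and 0.305 CPM in other multiplets, with 52.5% in 10 barcodes. Ccl24, an eosinophil attractant, had 56.4 CPM in C1q multiplets and 0.129 CPM in other multiplets, and Ccl7 had 132 CPM in C1q multiplets and 6.22 CPM in other multiplets.

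Over a list of 27 chemokines, 14 were more than 2-fold higher and 5 more than 2-fold lower in C1q multiplets than in other multiplets, beside a list median ratio of 2.15 and 0.903 over all counted genes. The monocyte attractant Ccl2 had 228 CPM in C1q multiplets against 26.5 CPM in other multiplets, and Cxcl16, a ligand for CXCR6 on T cells, had 211 CPM against 55.0 CPM. List counts cover only genes with enough UMIs in either sum, and a gene that passed through the group where it was high had to differ. Of 14 chemokine receptors counted, 11 were higher and 3 lower, among them Ccr2 at 330 CPM in C1q multiplets and 84.6 CPM in other multiplets.

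**Figure D2:**
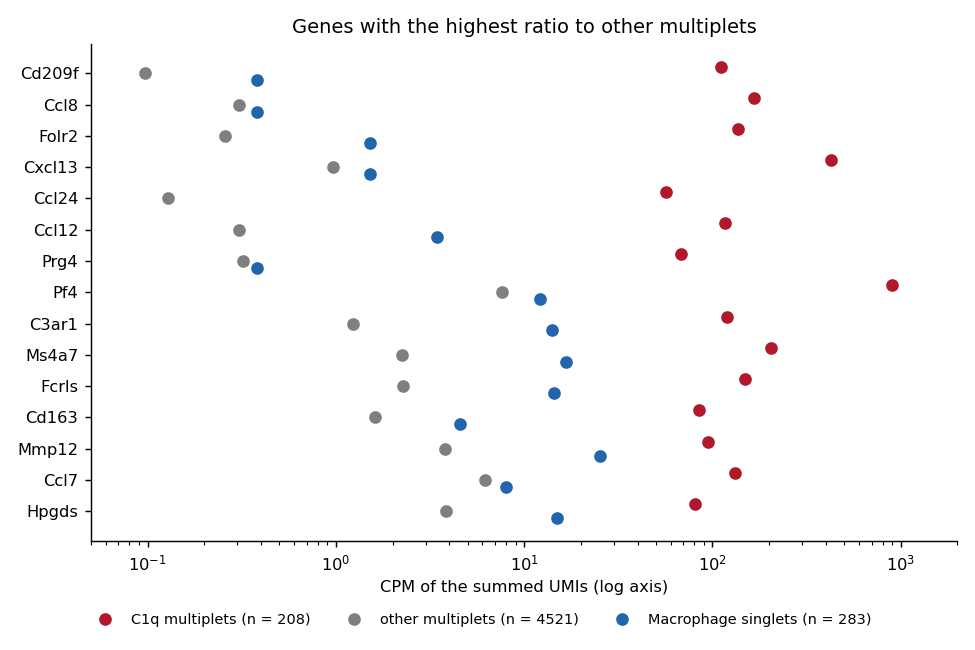
CPM (x axis, log scale) of the 15 genes with the highest ratio of C1q multiplets to other multiplets (rows), in the summed barcodes of C1q multiplets, other multiplets and Macrophage singlets. C1q multiplets lie furthest right in every row, from 56.4 CPM for Ccl24 to 904 CPM for Pf4, and Ccl24 has no singlet point because the singlet table does not list it.

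Surface receptors made up the next group. Folr2, folate receptor beta, had 137 CPM in C1q multiplets and 0.257 CPM in other multiplets, a ratio of 532 (325 to 938), with a UMI in 39.9% of C1q multiplets and 0.332% of other multiplets (27.4% and 0.177% at 5000 UMIs). Cd209f, a C-type lectin of the DC-SIGN family, had 111 CPM in C1q multiplets and 0.0964 CPM in other multiplets, from 446 and 6 UMIs. Only 13.9% of C1q multiplets held a Cd209f UMI (11.5% at 5000 UMIs), and 10 barcodes held 63.7% of them. Reads of such a family could be divided between its similar genes, and the sources used here do not say how the authors' counting treated them.

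Cd163, the scavenger receptor for haemoglobin bound to haptoglobin, had 84.4 CPM in C1q multiplets and 1.62 CPM in other multiplets. C3ar1, the receptor for the complement fragment C3a, had 120 CPM in C1q multiplets and 1.24 CPM in other multiplets, 96.9-fold higher (76.1 to 125). It was spread widely, with a median of 120 CPM per C1q multiplet and 0 per other multiplet. Ms4a7, a membrane protein of tissue macrophages, had 205 CPM in C1q multiplets and 2.25 CPM in other multiplets, with medians of 179 and 0 CPM per barcode. Fcrls, an Fc receptor-like scavenger receptor also known from microglia, had 149 CPM in C1q multiplets and 2.28 CPM in other multiplets.

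The remaining leading genes were enzymes and a matrix protein. Hpgds, which makes prostaglandin D2, had 81.2 CPM in C1q multiplets and 3.84 CPM in other multiplets. Mmp12, the macrophage elastase, had 94.1 CPM in C1q multiplets and 3.79 CPM in other multiplets, with 54.1% of its UMIs in 10 barcodes. Prg4, a lubricating proteoglycan, had 68.0 CPM in C1q multiplets and 0.321 CPM in other multiplets, but only 1.92% of C1q multiplets held a UMI of it (0.962% at 5000 UMIs).

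General macrophage genes were higher by smaller ratios. Of 13 interstitial macrophage markers, 11 were higher and 0 lower, and their sum was 8150 CPM in C1q multiplets and 1627 CPM in other multiplets. Of 15 macrophage transcription factors 5 were higher and 2 lower, with a median ratio of 1.08. Over all counted genes 7.09% were higher and 23.5% lower. Maf had 191 CPM in C1q multiplets and 61.2 CPM in other multiplets, whereas Cebpb had 1600 CPM and 1481 CPM. Csf1r, the receptor for the macrophage growth factor, had 407 CPM in C1q multiplets and 56.6 CPM in other multiplets, and the fractalkine receptor Cx3cr1 had 286 CPM and 29.3 CPM. Mertk, a receptor for dying cells, did not separate the groups, with 67.3 CPM in C1q multiplets and 66.3 CPM in other multiplets.

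All 7 antigen presentation genes of MHC class II were more than 2-fold higher than in other multiplets as a whole. Their sum was 23974 CPM in C1q multiplets and 6210 CPM in other multiplets. In the other multiplets called Macrophage, described further on, the sum was 19792 CPM. Markers of interstitial macrophages reached 3 UMIs at 5000 UMIs in 99.0% of C1q multiplets, 64.6% of other multiplets and 78.3% of Macrophage singlets. The list is not particular to macrophages, as it was detected in 99.8% of Fibroblast-1 singlets. Cd74, the invariant chain, had a median of 9950 CPM per C1q multiplet and 202 CPM per other multiplet. Apoe, a lipid carrier of tissue macrophages, had a median of 4824 CPM per C1q multiplet and 323 CPM per other multiplet. In a list of 17 complement genes, which leaves out the chains, 5 were higher and 9 lower, beside 7.09% and 23.5% of all counted genes. Cfp, properdin of the alternative pathway, had 109 CPM in C1q multiplets and 22.1 CPM in other multiplets, whereas C3 had 80.4 CPM and 312 CPM and the C1 inhibitor Serping1 47.9 CPM and 388 CPM in the same groups.

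Other macrophage functions gave mixed lists. Of 18 lysosomal genes, 6 were higher and 1 lower. Of 10 C-type lectins, 9 were higher and 0 lower, and of 7 Fc receptors 5 were higher and 0 lower, including the inhibitory receptor Fcgr2b at 232 CPM in C1q multiplets and 47.3 CPM in other multiplets. Of 17 genes of apoptotic cell uptake, 3 were higher and 5 lower, and of 9 interferon-induced genes 0 were higher and 1 lower. Over all counted genes 7.09% were higher and 23.5% lower, so the lower counts of these lists are not read as a trait of C1q multiplets. A list of 12 dissociation response genes summed to 16535 CPM in C1q multiplets and 12804 CPM in other multiplets, with 1 gene higher and 0 lower.

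The genes furthest below the other multiplets were mostly epithelial, lymphatic and stromal, with the neutrophil marker Ltf among them. They were Ccl21a, Ltf, Chia1, Pla2g1b, Sftpd, Sfta2, Cxcl15, Egfl6, Ager, Lgi3, Mmp3, Sftpa1, Bex4, Sftpc and Hc. Sftpc, surfactant protein C of type II pneumocytes, had 1945 CPM in C1q multiplets and 48985 CPM in other multiplets. Yet its median per barcode was 475 CPM in C1q multiplets, 640 CPM in other multiplets and 1022 CPM in Macrophage singlets, and its highest value in a C1q multiplet was 92390 CPM. Ager, a type I pneumocyte receptor, had 8.19 CPM in C1q multiplets and 236 CPM in other multiplets, and Ccl21a, the lymphatic vessel chemokine, had 0.993 CPM and 153 CPM in the same groups. Ccl21a and Ltf were rare in both groups, with a Ccl21a UMI in 1.92% of C1q multiplets and 3.85% of other multiplets and an Ltf UMI in 2.40% and 2.57%, and 10 other multiplets held 41.0% and 84.1% of their UMIs. All 9 endothelial, all 7 type I and all 9 type II markers were lower, as were 8 of 9 fibroblast markers and 4 of 5 club cell markers. Over all counted genes 23.5% were lower. These calls rest on sums. Per barcode the club list had a median of 911 CPM in C1q multiplets and 1007 CPM in other multiplets. The endothelial list had medians of 56.5 and 0 CPM, the type II list 793 and 959 CPM, and the fibroblast list 15.2 and 53.4 CPM.

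Most of the other multiplets were not called Macrophage, so a closer set was made after the data were seen: 860 other multiplets in which a mixture of the authors' singlet classes, fitted without the chain genes, assigned at least 0.15 of the RNA to Macrophage. Against these, Pf4 had 904 CPM in C1q multiplets and 9.27 CPM in the 860, Ms4a7 had 205 CPM and 3.57 CPM, and C3ar1 had 120 CPM and 4.74 CPM. Cd209f, Cxcl13, Folr2, Ccl8, Ccl12, Ccl24 and Prg4 also stayed among the 15 genes with the highest ratios, together with the airway genes Tff2, Bpifb1, Reg3g and Scgb3a1, whose UMIs lay mostly in few C1q multiplets. Retnla, a protein of alternatively activated macrophages that was not among the leading genes above, had 317 CPM in C1q multiplets and 12.3 CPM in the 860. Only 8.65% of C1q multiplets held a Retnla UMI (6.25% at 5000 UMIs), and 10 of them held 99.3% of these UMIs. Sums of some gene lists differed little from the 860: MHC class II had a ratio of 1.21, Fc receptors 1.20, chemokine receptors 1.11 and lysosomal genes 1.25. Interstitial and perivascular macrophage markers stayed higher, at ratios of 3.94 and 4.26, and C-type lectins at 1.77. The 15 genes furthest below the 860 were mixed. Ccl21a was lowest, at 0.993 CPM in C1q multiplets and 59.8 CPM in the 860, and the surfactant gene Sftpd had 29.5 CPM and 80.8 CPM. The others were Cldn1, Ifitm6, Pclaf, Ifi205, Cd209a, Adgre4, Irf7, Hist1h1b, Igfbp5, Ms4a4c, Ccl22, Ccl17 and Plac8. Ccl22, a chemokine of dendritic cells, had 19.1 CPM in C1q multiplets and 143 CPM in the 860, Ccl17 had 77.0 CPM and 307 CPM, and Plac8 had 348 CPM and 900 CPM.

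Set against the 283 Macrophage singlets, C1q multiplets held in sum more RNA of tissue macrophages and lymphocytes and less of monocytes and dendritic cells. Of 7738 genes counted in both tables, 510 (6.59%) were more than 2-fold higher in C1q multiplets and 240 (3.1%) more than 2-fold lower, with a median log2 ratio of 0.03. Part of the same leading set returned. Pf4 had 904 CPM in C1q multiplets and 12.2 CPM in Macrophage singlets, 74.1-fold higher (52.4 to 109). Folr2 had 137 CPM in C1q multiplets and 1.52 CPM in Macrophage singlets, and Stab1, a scavenger receptor of perivascular macrophages, had 119 CPM and 4.57 CPM in the same groups. Ccl8 and Cd209f had 1 UMI each in the Macrophage singlets, which left their ratios at 438 (78.4 to 17342) and 291 (51.9 to 11501).

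Several of the 15 highest genes in this contrast came from few barcodes, and 12 of the 15 ratios moved by more than 1.5 times under some alternative. Reg3g, Tff2, Scgb3a1, Bpifb1, Scgb3a2 and Cyp2f2 are products of airway epithelium. Their ratios ran from 25.6 for Cyp2f2 to 315 for Reg3g. Bpifb1 had 0 UMIs in the singlets, and its ratio was 106 with this 0 set to a floor of 3 UMIs over the group (lower bound of the interval 85.9). All UMIs of Reg3g, Tff2 and Bpifb1 lay in 10 or fewer barcodes. Without the 10 deepest C1q multiplets, an alternative chosen after the data were seen, the ratios were 3.85 for Reg3g, 2.31 for Tff2, 4.62 for Scgb3a1, 1.28 for Bpifb1, 2.18 for Scgb3a2 and 10.2 for Cyp2f2.

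Gzma, granzyme A of cytotoxic lymphocytes, had 186 CPM in C1q multiplets and 4.19 CPM in Macrophage singlets. Without the C1q multiplets in which a T, B or NK cell list was detected, its ratio was 0.132 in place of 44.3. The other 14 leading genes of this contrast kept their direction under each alternative that gave a value (Bpifb1 had none with equal weight per barcode), though thinning left the ratios of Ccl8 at 68.5 and of Cd209f at 55.0. They too were chosen by their ratios in these barcodes, so this is no independent check.

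Of 13 interstitial macrophage markers, 7 were more than 2-fold higher and 0 lower than in Macrophage singlets, beside 6.59% and 3.1% of all counted genes. Apoe had 5446 CPM in C1q multiplets and 2031 CPM in Macrophage singlets, and Mertk had 67.3 CPM and 8.0 CPM. Of 10 perivascular markers counted, 8 were higher and 0 lower: Mrc1, the mannose receptor, had 517 CPM in C1q multiplets and 59.1 CPM in Macrophage singlets, and Lyve1, a hyaluronan receptor, had 75 CPM and 6.10 CPM. In other multiplets Lyve1 had 68.5 CPM, a ratio of 1.09. Without the C1q multiplets holding lymphocyte RNA this ratio was 0.960, so the Lyve1 sums did not separate these groups. The shares of barcodes did differ after thinning. A Lyve1 UMI was then present in 21.6% of C1q multiplets, 9.27% of other multiplets and 5% of the 860 called Macrophage. Of 12 alveolar macrophage markers 10 were higher and 0 lower. The 7 MHC class II genes gave 0 calls in either direction, with a sum of 23974 CPM in C1q multiplets and 17991 CPM in Macrophage singlets.

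Monocyte and dendritic RNA stood lower in the sums. Per barcode, the dendritic list did not: its median was 235 CPM in C1q multiplets and 0 CPM in Macrophage singlets. The highest singlet value was 39780.5 CPM. Of 8 classical monocyte markers 4 were lower and 0 higher, of 7 nonclassical ones 4 were lower and 0 higher, and of 9 dendritic ones 6 were lower and 0 higher. Over all counted genes 6.59% were higher and 3.1% lower. Against the 15 Macrophage singlets past the C1q rule, the summed classical list had a ratio of 0.769, the nonclassical list 2.50 and the dendritic list 2.52. Ly6c2, a surface antigen of classical monocytes, had 60.8 CPM in C1q multiplets and 354 CPM in Macrophage singlets. Ccl22, a chemokine of mature dendritic cells, had 19.1 CPM and 147 CPM in the same groups. However, 10 singlets held 97.9% of the singlets' Ccl22 UMIs. A Ccl22 UMI was present in 7.21% of C1q multiplets and 5.65% of Macrophage singlets. Ms4a4c had 50.9 CPM in C1q multiplets and 262 CPM in Macrophage singlets, and Ifitm6 had 72.2 CPM and 359 CPM. Fibroblast genes were also among the 15 lowest. Pdgfra had 11.2 CPM in C1q multiplets and 92.2 CPM in Macrophage singlets, and Inmt had 87.6 CPM and 436 CPM. Few singlets carried much of this, as 10 held 59.1% of the singlets' Pdgfra UMIs and 10 held 55.6% of their Inmt UMIs.

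The inflammatory chemokines Ccl3 and Ccl4 did not follow the leading ones. Ccl3 had 254 CPM in C1q multiplets and 465 CPM in Macrophage singlets, and Ccl4 had 424 CPM and 783 CPM. Il1b, an inflammatory cytokine, had 1658 CPM in C1q multiplets and 1968 CPM in Macrophage singlets, neither beyond 2-fold. Il10, an anti-inflammatory cytokine, was low, at 12.4 CPM in C1q multiplets and 1.14 CPM in Macrophage singlets. The insulin-like growth factor gene Igf1 had 91.6 CPM in C1q multiplets and 14.1 CPM in Macrophage singlets, and Abca1, a cholesterol exporter, had 137 CPM and 21.7 CPM.

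Of the 283 Macrophage singlets, the 15 that passed the C1q rule were closer to the C1q multiplets in interstitial markers and some single genes. They were not closer over all counted genes. C1q multiplets had 1140 of 7635 genes past 2-fold above these 15 and 230 below. Against all 283 singlets, 510 of 7738 lay above and 240 below. The alveolar macrophage list had a ratio of 4.31 against the 15 and 3.66 against the 283. The 15 held only 183711 UMIs in all, and the part of this in the gene counts was not tested. Apoe had 5446 CPM in C1q multiplets and 5803 CPM in these 15, and Mrc1 had 517 CPM and 397 CPM. Ms4a7 had 205 CPM in C1q multiplets and 185 CPM in the 15, and C3ar1 had 120 CPM and 136 CPM. Pf4 did not follow, with 904 CPM in C1q multiplets and 158 CPM in the 15. The 13 interstitial markers summed to 8150 CPM in C1q multiplets and 8949 CPM in the 15. MHC class II genes were lower in the multiplets, at 23974 CPM against 46938 CPM in the 15, and 10 perivascular markers in both tables were higher, at 1426 CPM against 561 CPM.

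RNA of lymphocytes was detected more often in C1q multiplets than in other multiplets or in Macrophage singlets as a whole. Barcodes were counted after random thinning to 5000 UMIs each, and at least 3 UMIs over the genes of a marker list counted as detection. At least 1 of the T, B and NK cell lists was detected in 112 C1q multiplets (53.8%, 46.8 to 60.8%). It was detected in 174 of the 860 other multiplets called Macrophage (20.2%, 17.6 to 23.1%), in 412 of all other multiplets (9.11%) and in 16 of the 235 Macrophage singlets with at least 5000 UMIs (6.81%). Among the Macrophage singlets past the C1q rule it was 3 of 14 (21.4%, 4.66 to 50.8%). This interval overlaps that of the C1q multiplets but covers counting error only, and the difference was not tested. Against the 15 such singlets the T cell list summed to 431 CPM in C1q multiplets and 327 CPM in the singlets, a ratio of 1.32, and the B cell list to 401 CPM and 180 CPM. In singlet classes that should lack lymphocyte RNA the share was 2 of 2244 for Fibroblast-1 (0.0891%) and 11 of 1009 for type II pneumocytes (1.09%). Among T cell singlets it was 94.8%.

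T cell markers were detected in 30.8% of C1q multiplets (24.6 to 37.5%), 12.9% of the 860, 6.10% of other multiplets and 4.26% of Macrophage singlets. B cell markers were detected in 25% of C1q multiplets (19.3 to 31.5%), 6.51% of the 860, 2.63% of other multiplets and 2.13% of Macrophage singlets. NK cell markers were detected in 9.13% of C1q multiplets (5.59 to 13.9%), 2.33% of the 860, 1.13% of other multiplets and 0.426% of Macrophage singlets. In each of the 3 lists the share was highest in C1q multiplets among the groups given here, a difference that was not tested.

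Single genes gave the same order. The B cell receptor subunit Cd79a had 167 CPM in C1q multiplets, 23.9 CPM in other multiplets and 19.1 CPM in Macrophage singlets. The T cell receptor subunit Cd3d had 92.9 CPM in C1q multiplets, 24.2 CPM in other multiplets and 21 CPM in Macrophage singlets. All 6 T, all 5 B and all 6 NK cell markers counted were more than 2-fold higher than in other multiplets. Of all genes counted in this contrast, 7.09% were more than 2-fold higher and 23.5% more than 2-fold lower. Only genes with enough UMIs in either sum were counted. In 22 C1q multiplets (10.6%) at least 2 of the 3 lists were detected together, against 34 other multiplets (0.752%). Each single list was also more frequent in C1q multiplets. Among these, the B cell list was detected in 20.3% of barcodes with the T cell list and 27.1% of those without. The NK cell list was detected in 12.5% and 7.64% by the T cell list, and in 5.77% and 10.3% by the B cell list.

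Neutrophil and dendritic markers did not separate C1q multiplets from other multiplets called Macrophage in this way. The neutrophil list was detected in 35.1% of C1q multiplets, 38.8% of the 860, 8.45% of other multiplets and 13.2% of Macrophage singlets. The dendritic list was detected in 26.9% of C1q multiplets, 36.0% of the 860, 8.43% of other multiplets and 29.8% of Macrophage singlets. The alveolar macrophage list was detected in 25.5% of C1q multiplets, 39.1% of the 860, 25.5% of other multiplets and 27.7% of Macrophage singlets, so the higher sum against these singlets did not come with a higher share of barcodes. The endothelial list was detected in 7.21% of C1q multiplets, 8.37% of the 860 and 15% of other multiplets, and without thinning in 18.8% of C1q multiplets and 19.1% of other multiplets. The fibroblast list was detected in 5.29% of C1q multiplets, 7.21% of the 860 and 31.0% of other multiplets.

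Free RNA in droplets can give such counts without a cell of that type, and 2 secretory lists were detected in every group. The type II pneumocyte list was detected in 71.2% of C1q multiplets, 79.8% of other multiplets and 97.4% of Macrophage singlets. The club cell list was detected in 82.2% of C1q multiplets, 84.9% of other multiplets and 48.1% of Macrophage singlets. How much of these shares was free RNA was not tested. The secretoglobin Scgb1a1 had a lowest value of 214 and a median of 869 CPM per C1q multiplet, and a highest of 316009 CPM. The mixture described further on called a Clara (club) cell in 1 C1q multiplet and a type II pneumocyte in 2.

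**Figure D3:**
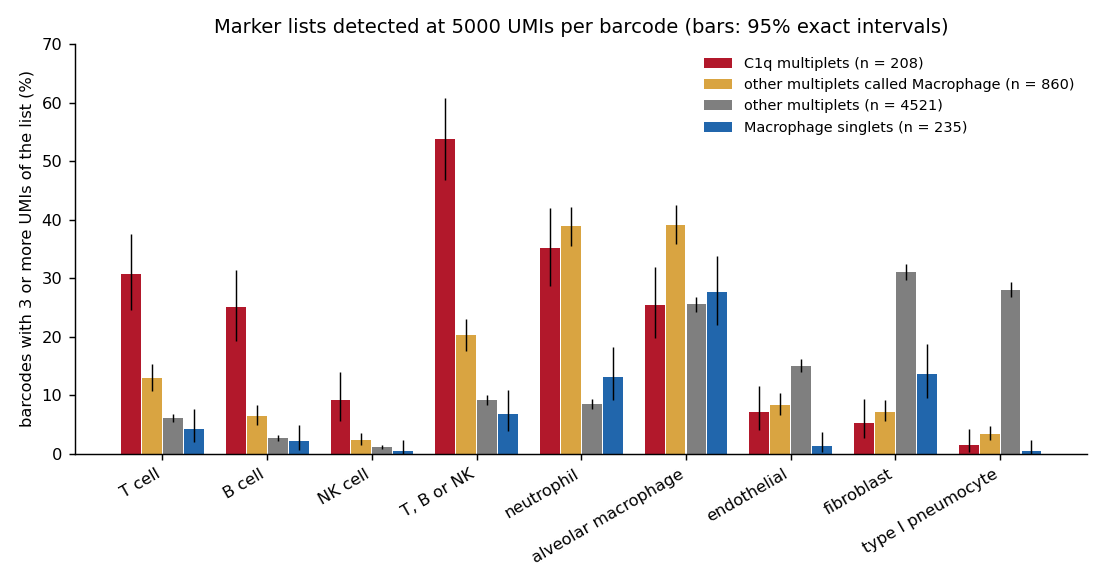
Share of barcodes in percent (y axis, bars with exact 95% intervals) in which each marker list (x axis) had at least 3 UMIs after thinning to 5000 UMIs, for C1q multiplets, other multiplets called Macrophage, other multiplets and Macrophage singlets. The T, B and NK cell lists are highest in C1q multiplets, at 30.8, 25 and 9.13%, and the neutrophil, alveolar macrophage and fibroblast lists are not.

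The mixture of 13 singlet classes described the same barcodes over 520 class genes without the chains. Macrophage was called in 196 of 208 C1q multiplets (94.2%), against 860 of 4521 other multiplets (19.0%). At least 2 classes were called in 117 C1q multiplets (56.3%, 49.2 to 63.1%), against 22.6% of other multiplets. The background from Macrophage singlets fitted with profiles made from other singlets was 24.4%, and 5 of the 15 Macrophage singlets past the C1q rule had at least 2 classes. Among barcodes called Macrophage, at least 2 classes were called in 57.7% of C1q multiplets (50.4 to 64.7%) and in 42.9% of the 860 (39.6 to 46.3%).

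Within these Macrophage-called barcodes, T cell was called in 49 of 196 C1q multiplets (25%, 19.1 to 31.7%) and 106 of the 860 (12.3%, 10.2 to 14.7%). B cell was called in 41 C1q multiplets (20.9%, 15.4 to 27.3%) and 57 of the 860 (6.63%, 5.06 to 8.5%). Alveolar macrophage was called in 32 C1q multiplets (16.3%, 11.4 to 22.3%) and 146 of the 860 (17.0%, 14.5 to 19.7%). These intervals cover counting error only, and none of these differences was tested. Of all C1q multiplets, 83 (39.9%) were called Macrophage and nothing else.

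C1q multiplets differed among themselves in how much of their RNA was C1q and other macrophage RNA. The 72 with 10 to 50 C1q UMIs per 10000 had a median of 24857.5 UMIs per barcode, the 80 with 50 to 100 had 14635.5 and the 56 with 100 or more had 9058.5. Over these ranges the summed interstitial macrophage markers were 4529, 10056 and 16809 CPM, and the perivascular markers 824, 1728 and 3140 CPM. RNA of other cells ran the other way for some lists: fibroblast markers summed to 969, 253 and 54.5 CPM, and alveolar macrophage markers to 2018, 1354 and 474 CPM. A few barcodes carried the fibroblast sums, since the medians per barcode were 33.9, 30.5 and 0 CPM, and without the 10 deepest C1q multiplets the sum over all of them was 288 CPM in place of 596 CPM. Lymphocyte lists showed no such order, with T cell sums of 352, 576 and 372 CPM and B cell sums of 325, 512 and 413 CPM.

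The part of depth in this order was not tested, and CPM sums to a fixed total, so a larger share of 1 RNA leaves less for the others. At least 2 classes were called in 59.7%, 62.5% and 42.9% of the barcodes over the 3 ranges.

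**Figure D4:**
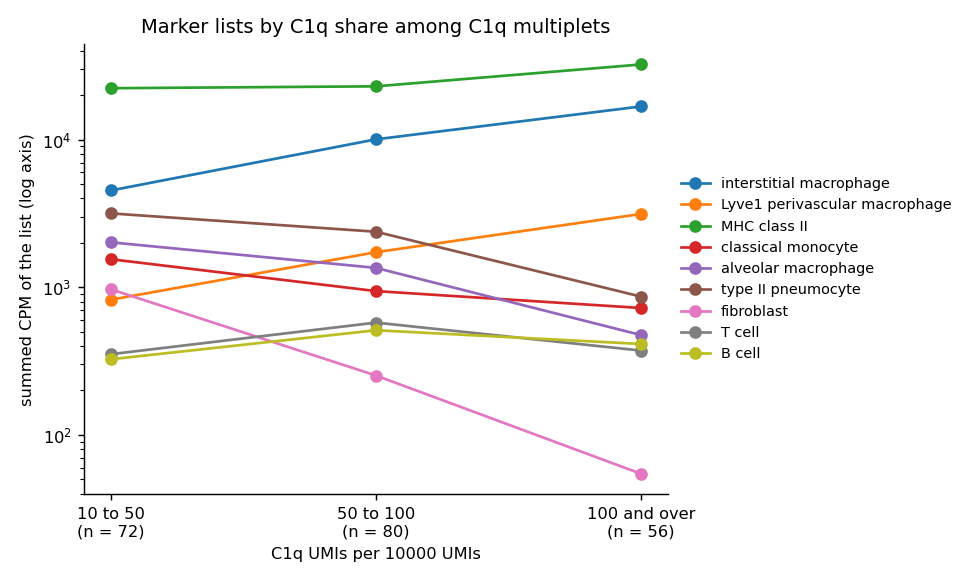
Summed CPM of marker lists (y axis, log scale) in C1q multiplets grouped by C1q UMIs per 10000 (x axis, 72, 80 and 56 barcodes). The interstitial and perivascular macrophage lists are higher at each step, the fibroblast list is lower at each step, at 969, 253 and 54.5 CPM with medians per barcode of 33.9, 30.5 and 0 CPM, and the T and B cell lists are highest in the middle range.

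Across the 208 barcodes and 7236 genes with a UMI in at least 40 of them, the genes that ranked most like the C1q sum were Itm2b, Ctsc, Csf1r, Cd81, Cd63, Lgmn, C3ar1, Apoe, Rab3il1 and Tmem176b. Spearman's rho was 0.69 for Itm2b, 0.61 for Ctsc, which encodes the lysosomal protease cathepsin C, and 0.54 for Apoe. The barcodes shared 1 library and differed in depth, so these are descriptions. The actin-binding genes Tmsb10 and Lsp1 ranked lowest, each at -0.55, with the epithelial gene Epcam at -0.47.

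Perivascular and MHC class II genes tended to be high in different C1q multiplets. At 5000 UMIs the perivascular list and the MHC class II list had a Spearman's rho of -0.38 over the 208 barcodes, while with the C1q sum it was 0.33 for the perivascular list and 0.12 for MHC class II. To describe this, C1q multiplets were divided after the data were seen by any Folr2 or Cd209f UMI at 5000 UMIs, which gave 64 with (30.8%) and 144 without. Median depth was near equal, at 14488 UMIs in the barcodes with Folr2 or Cd209f and 14957.5 in those without. The other perivascular markers were not used in this division.

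Barcodes with Folr2 or Cd209f held more RNA of several other genes known from perivascular macrophages. Lyve1 had 198 CPM in barcodes with and 27.8 CPM in barcodes without, Cd163 had 246 CPM and 22.6 CPM, and F13a1, the clotting factor XIII A chain, had 631 CPM and 86.8 CPM. The chemokines Ccl24, at 153 CPM with and 19.6 CPM without, and Ccl8, at 431 CPM with and 66.2 CPM without, followed the same division. So did Pf4, at 1983 CPM with and 491 CPM without, and Gas6, a bridge between dying cells and their receptors, at 243 CPM with and 49.8 CPM without. Maf had 389 CPM with and 116 CPM without.

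Barcodes without Folr2 or Cd209f held more MHC class II and monocyte-associated RNA. Cd74 had 5828 CPM in barcodes with and 12304 CPM in barcodes without, and H2-Aa had 2954 CPM and 5208 CPM. Ccr2, the receptor by which monocytes leave the marrow, had 108 CPM with and 415 CPM without. Mmp12 had 2.69 CPM with and 129 CPM without, and Retnla had 131 CPM with and 388 CPM without. Cx3cr1 was near equal, at 267 CPM with and 293 CPM without, and so was Trem2, a lipid receptor, at 156 CPM with and 139 CPM without.

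Lymphocyte lists were detected in like shares on both sides of the division. The B cell list was detected in 23.4% of barcodes with Folr2 or Cd209f and 25.7% of those without, the T cell list in 34.4% and 29.2%, and the NK cell list in 9.38% and 9.03%. Classical monocyte markers were detected in 45.3% of barcodes with Folr2 or Cd209f and 74.3% of those without. Epithelial RNA differed in sum, Sftpc having 535 CPM with and 2484 CPM without, but the type II list was detected in 75% and 69.4%.

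**Figure D5:**
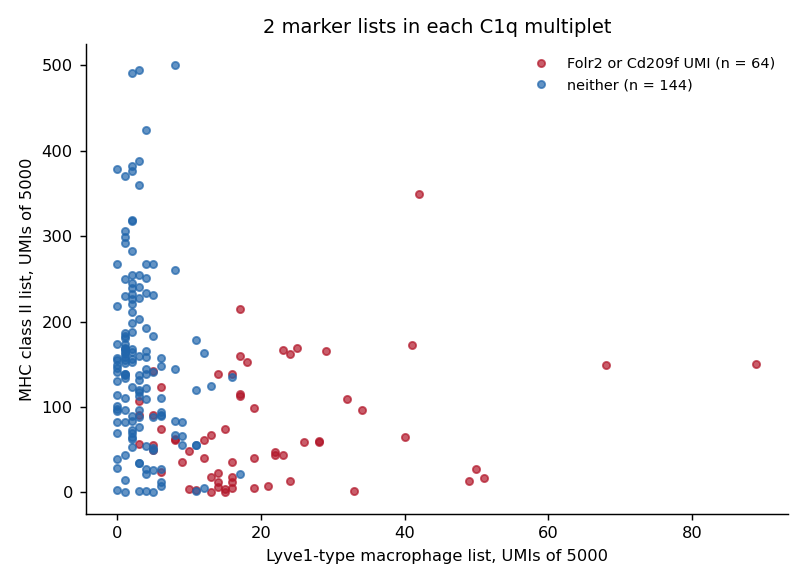
UMIs of the perivascular (Lyve1-type) list (x axis) and of the MHC class II list (y axis) per C1q multiplet thinned to 5000 UMIs, coloured by whether a Folr2 or Cd209f UMI was present (64 with, 144 without). Barcodes with Folr2 or Cd209f, which belong to the perivascular list, lie further right, and Spearman's rho over all 208 is -0.38.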

How the data were processed

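The authors deposited count tables, with UMIs per gene symbol in each barcode, and annotation tables with singlet classes. The submitters' processing notes name Cell Ranger 4.0.0 and mm10, and the sources used here do not say how classes were made. The deposited counts were whole numbers whose totals differed between barcodes. No further filter was set and no doublet caller was run.

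Counts were summed over C1q multiplets (4027904 UMIs), other multiplets (62249718) and Macrophage singlets (2623973) and scaled to CPM. Ratios used no pseudocount, needed 50 UMIs in either sum and were called past 2-fold. Named genes are the 15 highest and 15 lowest ratios per contrast among genes with 50 CPM in the higher sum, leaving out the chains, mitochondrial genes, Gm-numbered and Rik genes and segments of antigen receptors, plus members of 48 gene lists and the 10 genes ranking most like C1q. Where the singlet table does not list a gene, no singlet value is given. The members and lists were chosen with earlier results of these data known. Intervals are exact 95% (Clopper-Pearson or Poisson) and cover counting error only. A Poisson mixture of 13 class profiles called classes at a weight of 0.15. Both procedures were tested on simulated data. The alternatives concerned the C1q limit, count minimum, fold limit, weighting, scaling, thinning, the barcodes compared and the class weight. Software was Python 3.11.15, numpy 2.4.6, scipy 1.17.1, pandas 2.3.3 and, for TMM scaling, edgeR 4.0.16 in R 4.3.3.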

Additional observations from a re-analysis of the deposited data

How the results depend on the processing

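The number of genes called depended mainly on the minimum and on the group compared. Against Macrophage singlets, 510 genes were higher and 240 lower. With at least 200 UMIs these were 173 and 71, with at least 1 UMI in both sums 1635 and 1174, and at a 1.5-fold limit 1021 and 605. After thinning to 5000 UMIs, 233 were higher and 194 lower, which moved the share of higher genes among those called to 54.6% from 68.0%. Against the 15 Macrophage singlets past the C1q limit, 1140 were higher and 230 lower, of which 200 and 4 were shared with the main comparison. Without the C1q multiplets holding a lymphoid list, 313 were higher. Against other multiplets, 1044 were higher and 3468 lower. With at least 1 UMI in both sums 2144 were higher, at a 1.5-fold limit 2046, and against the 860 called Macrophage 320 were higher and 328 lower. Limits of 5 and 20 C1q UMIs per 10000, equal weight per barcode, TMM scaling and leaving out the 10 deepest C1q multiplets kept all 4 counts within 1.5 times. The lymphoid share of 53.8% was 61.5% without thinning and 40.4% at 5 UMIs per list, and the share with at least 2 classes of 56.3% was 38.0% at a weight of 0.25. The lymphoid omission, the 10 deepest and the 860 were chosen after seeing the data. The causes of these moves were not tested beyond the settings' own construction. The 15 Macrophage singlets and genes with few UMIs limit the precision most. No paired analysis was possible because each group had 1 library.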
